A study of Mus musculus with 12 samples.

Results

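The genes described here encode the meiotic cohesin subunits *Rec8*, *Stag3* and *Smc1b*, the telomere attachment factor *Ccdc79* (the array's name of *Terb1*), the Cdk2 activator *Spdya* and *Cdk2* itself, with the general cohesin subunits *Smc1a*, *Smc3* and *Rad21* as a contrast. They were found by the gene name on the array, and all 9 were measured, by 14 of 41174 probes. After the filter on dim probes, 9 of 9 genes and 13 of 14 probes remained, of 18844 genes and 27311 probes in all. Levels are given as log2 of the processed intensity minus the 75th percentile of the same array, so that 0 is the signal of a bright probe and 1 unit is a doubling. Levels of different genes were not set against each other, because probes differ in brightness.

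RNA of whole E14.5 mouse gonads was hybridised to 12 single-colour arrays, 3 for each of 4 groups on a mixed background. Pregnant mice had received tamoxifen on E9.5 and again on E10.5, and the inducible Cre was driven by *Stella*, a gene of germ cells, with an efficiency that varied. Control testes were Smad4Flox/+ StellaMerCreMer Stra8+/-. Control ovary 1 had that same genotype, whereas control ovary 2 (Smad4Flox/+ Stra8+/-) and control ovary 3 (Smad4Flox/Flox Stra8+/-) carried no Cre. *Smad4 (Stella)* ovaries were Smad4flox/flox MerCreMer Stra8+/−, and double knockout (DKO) ovaries were Smad4flox/flox MerCreMer Stra8−/−. All controls and *Smad4 (Stella)* ovaries thus lacked 1 copy of *Stra8*, and no group lacked *Stra8* alone, so that DKO ovaries against *Smad4 (Stella)* ovaries is the comparison that changes *Stra8* only.

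Cohesin is a ring that holds sister chromatids together. In meiotic germ cells the ring is built with dedicated subunits: REC8 takes the place of the kleisin RAD21, SMC1β that of SMC1α, and STAG3 that of STAG1 or STAG2, while SMC3 is shared. Telomeres then attach to the nuclear envelope through TERB1, TERB2 and MAJIN, with SUN1 and KASH5 linking them to the cytoskeleton, and Speedy A (encoded by *Spdya*) brings CDK2 to the telomeres. Fetal ovarian germ cells enter meiosis at this stage whereas those of the testis do not, and SMAD4, the common mediator of TGFβ and BMP signals, and STRA8, a factor induced by retinoic acid, both act in that choice.

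The sequences before the annotated starts of the 5 genes with mainly meiotic roles are shown, since all 5 were lower in testes than in control ovaries but only 4 of them fell in DKO ovaries. They come from RefSeq on GRCm38.p6 and are written 5′ to 3′ on the strand of the gene. Each ends at the base before the annotated start. The printed window is 250 bases long except for *Smc1b*, where 102 bases remained after the part inside the neighbouring gene *Ribc2* was dropped. They lie at chr14:55617916-55618165 (plus strand) for *Rec8*, chr5:138280259-138280508 (plus) for *Stag3*, chr15:85131958-85132059 (minus) for *Smc1b*, chr8:104509888-104510137 (minus) for *Ccdc79* and chr17:71551811-71552060 (plus) for *Spdya*. Capitals mark matches to the E-box CACGTG or to the E2F-type letters TCCCGC.
Rec8: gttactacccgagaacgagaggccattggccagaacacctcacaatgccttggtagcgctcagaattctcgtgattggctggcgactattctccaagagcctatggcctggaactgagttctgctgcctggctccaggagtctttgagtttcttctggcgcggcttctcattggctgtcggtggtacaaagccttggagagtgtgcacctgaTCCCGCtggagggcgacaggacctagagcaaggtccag
Stag3: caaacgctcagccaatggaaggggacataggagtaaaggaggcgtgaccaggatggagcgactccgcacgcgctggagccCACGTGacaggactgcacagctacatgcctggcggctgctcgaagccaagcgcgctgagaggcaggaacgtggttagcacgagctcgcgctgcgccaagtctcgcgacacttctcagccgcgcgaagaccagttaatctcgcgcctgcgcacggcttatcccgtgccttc
Smc1b: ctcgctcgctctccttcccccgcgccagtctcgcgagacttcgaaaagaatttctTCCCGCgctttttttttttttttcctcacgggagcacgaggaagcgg
Ccdc79: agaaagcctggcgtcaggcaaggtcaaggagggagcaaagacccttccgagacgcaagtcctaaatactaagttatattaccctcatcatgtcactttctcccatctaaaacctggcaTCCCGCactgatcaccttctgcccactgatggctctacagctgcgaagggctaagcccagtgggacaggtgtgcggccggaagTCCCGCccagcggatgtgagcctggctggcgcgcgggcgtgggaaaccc
Spdya: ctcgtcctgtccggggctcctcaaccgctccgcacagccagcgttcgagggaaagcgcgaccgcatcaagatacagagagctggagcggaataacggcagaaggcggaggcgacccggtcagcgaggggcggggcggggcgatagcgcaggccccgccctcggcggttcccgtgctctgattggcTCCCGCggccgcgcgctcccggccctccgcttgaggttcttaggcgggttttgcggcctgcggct

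The letters CNCCTCAG, reported for STRA8 binding, CACGTG and TCCCGC were searched on both strands of the 250 bases before the start. For *Smc1b* this included the part inside *Ribc2* that is not printed. No match to CNCCTCAG lay in these 5 windows, while 6.42% of all 32851 windows of that length held one. The E-box was found in *Stag3*, 170 bases before the start, and in 6.02% of all windows. The letters TCCCGC were found at 38 bases in *Rec8*, at 47 bases in *Smc1b*, at 132 and 49 bases in *Ccdc79* and at 65 bases in *Spdya*, and in 16.9% of all windows. Of the other windows at hand, that of *Cdk2* held 1 match to CNCCTCAG, which overlapped 1 of its 3 matches to TCCCGC, *Smc3* held 1 match to TCCCGC, and *Smc1a* held no match. A match is a description of letters and not a binding site. *Rec8*, whose level did not change in the mutants, and *Smc1b*, *Ccdc79* and *Spdya*, which fell, shared the same letters within their windows.

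The arrays measure RNA through 60-base probes. *Stag3*, *Smc1b*, *Ccdc79* and *Spdya* each rest on 1 probe, so that their values have no second probe to compare with. *Rec8*, *Smc1a*, *Smc3* and *Rad21* rest on 2 probes each. The probe of *Ccdc79*, the gene with the lowest levels in DKO ovaries relative to control ovaries, lies at chr8:106976602-106976661 on the minus strand of mm9, the build of the array design, and 1 of the *Rec8* probes spans chr14:56243204-56243588 on the plus strand, across an intron.
Ccdc79 probe: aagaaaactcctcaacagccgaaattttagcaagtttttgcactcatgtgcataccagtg
Rec8 probe: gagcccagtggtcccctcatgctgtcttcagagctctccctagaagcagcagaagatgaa

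The 12 arrays had 58.8% to 70.5% of probes well above background and correlated within groups at r of 0.976 or more, with control ovary 1 the dimmest. The arrays sat on 3 slides: slide 1 held the 3 testes and control ovary 1, slide 2 control ovaries 2 and 3 with DKO ovaries 1 and 2, and slide 3 the *Smad4 (Stella)* ovaries with DKO ovary 3. *Smad4 (Stella)* ovaries thus shared no slide with control ovaries, and neither mutant group shared a slide with testes. *Smad4* RNA differed by -0.03 in *Smad4 (Stella)* ovaries and by -0.13 in DKO ovaries from control ovaries (limma, adjusted p = 0.910 and 0.563). *Stra8* signal was 6.16 to 6.71 in control ovaries, 5.28 to 5.61 in DKO ovaries and -2.98 to -2.32 in testes. Whether the probes of *Smad4* and *Stra8* lie in the deleted parts of these genes was not checked here, so these signals do not test the labels. The germ cell genes *Ddx4* and *Dazl* differed by 0.14 and -0.08 between DKO and control ovaries (adjusted p = 0.561 and 0.736). The other measured germ cell markers, *Dppa3*, *Nanos3* and *Pou5f1*, were higher in DKO ovaries, by 2.33, 3.82 and 2.32 (adjusted p = 0.00332, 1.12e-04 and 0.00200). The summed level of the 5 measured germ cell markers was 5.49 to 6.13 in control and 6.28 to 6.65 in DKO ovaries, that of the 4 meiotic prophase markers 4.95 to 5.42 against 3.36 to 3.96, and that of the 5 Sertoli markers -0.81 to -0.51 against -0.84 to -0.45 (5.35 to 5.44 in testes). The 5 pregranulosa markers summed to 6.05 to 6.31 in control and 6.14 to 6.40 in DKO ovaries. In whole gonads, fewer cells of a type and less RNA per cell cannot be told apart.

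**Figure D1:**
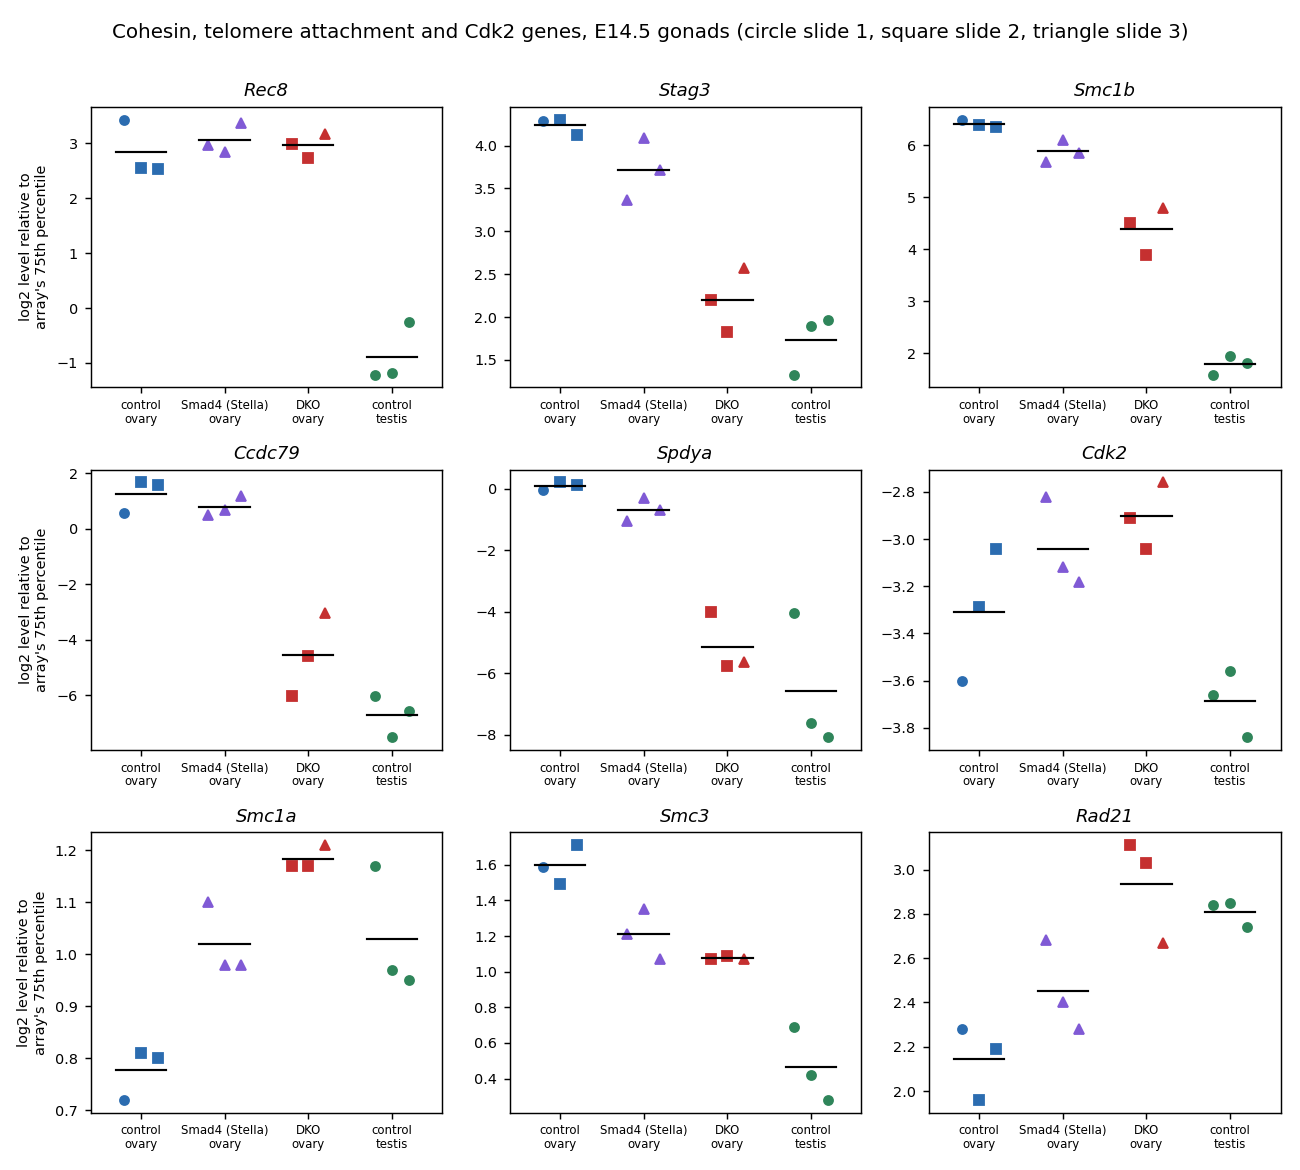
Level of each of the 9 genes on each of the 12 arrays (y axis, log2 relative to the array's 75th percentile, with its own range in each panel) by group (x axis). Points are arrays, their shape gives the slide, and lines are group means of 3 arrays. *Rec8* lay between 2.53 and 3.43 in all 9 ovaries, whereas *Ccdc79* and *Spdya* lay at -3.03 or lower in every DKO ovary.

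In DKO ovaries, 4 of the 6 genes other than the general cohesin subunits fell relative to control ovaries: *Stag3* and *Smc1b* about 4-fold, *Spdya* 37.7-fold and *Ccdc79* 56.1-fold. The sizes of these last 2 rest on 2 of 3 DKO ovaries above background each, and after normexp background correction their log2 fold changes of -5.24 and -5.81 became -2.74 and -3.16, both still called. *Rec8* and *Cdk2* were not called. Of the 3 general cohesin subunits, *Rad21* rose 1.73-fold and *Smc1a* and *Smc3* moved by less than 1.5-fold. Calls needed both an adjusted p under 0.05 (limma over all genes) and 1.5-fold or more, and 14.7% of all 18844 genes were called in this comparison, 7.99% lower and 6.69% higher, against 4 lower and 1 higher of 9 here. *Ccdc79* and *Spdya* passed the filter on dim probes only through control and *Smad4 (Stella)* ovaries, where they were high. Their lower calls in DKO ovaries and in testes are therefore not independent of that filter. The 3 DKO ovaries did not overlap the 3 control ovaries for 7 of the 9 genes, beside 32.8% of all genes. The median log2 fold change was -2.03 over the 6 genes other than the general subunits and 0.41 over the 3 general subunits, beside 0.00 over all genes.

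*Rec8*, the meiotic kleisin that closes the cohesin ring, stood at 3.43, 2.56 and 2.53 in control ovaries. *Smad4 (Stella)* ovaries gave 2.97, 2.84 and 3.37 and DKO ovaries 2.98, 2.74 and 3.17, while testes gave -1.21, -1.18 and -0.26. The 9 ovaries overlapped, and the highest control ovary was the one on slide 1 that carried the Cre. The difference between DKO and control ovaries was 0.13 ± 0.30 (SE, n = 3 and 3, 95% interval -0.55 to 0.80; limma, adjusted p = 0.814), and within slide 2, with 2 arrays of each group, it was 0.32. In *Smad4 (Stella)* ovaries the difference was 0.22 ± 0.30 (95% interval -0.45 to 0.89, adjusted p = 0.713). Both probes of the gene gave like values for DKO against control ovaries, 0.06 and 0.20. DKO ovaries thus held 14.4-fold more *Rec8* RNA than testes (log2 fold change 3.85 ± 0.30, adjusted p = 6.89e-06), and control ovaries 13.2-fold more (adjusted p = 4.85e-06).

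*Stag3*, the meiotic SA-type subunit that binds the kleisin, was at 4.29, 4.30 and 4.12 in control ovaries and at 2.20, 1.82 and 2.57 in DKO ovaries. No DKO ovary reached a control ovary. The level fell by 2.04 ± 0.24 on the log2 scale (adjusted p = 2.33e-04), that is 4.11-fold, and the difference was -2.20 within slide 2. *Smad4 (Stella)* ovaries, at 3.36, 4.09 and 3.71, lay below the control ovaries without a call (log2 fold change -0.52 ± 0.24, adjusted p = 0.264). Testes were at 1.33, 1.89 and 1.96, overlapping the DKO ovaries, with a difference of 0.47 ± 0.24 between DKO ovaries and testes (adjusted p = 0.153).

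*Smc1b*, the meiotic partner of SMC3, was the most even of the germ cell genes among control ovaries, at 6.49, 6.39 and 6.35. In DKO ovaries it was at 4.50, 3.89 and 4.80 and in testes at 1.59, 1.95 and 1.82, so that the DKO ovaries lay apart from both. From control ovaries it fell by 2.02 ± 0.21 on the log2 scale, or 4.05-fold (adjusted p = 1.18e-04), and the difference was -2.18 within slide 2. DKO ovaries still held 6.09-fold more *Smc1b* RNA than testes (log2 fold change 2.61 ± 0.21, adjusted p = 8.04e-06). *Smad4 (Stella)* ovaries were at 5.67, 6.11 and 5.86, all below the control ovaries, and were not called (log2 fold change -0.53 ± 0.21, adjusted p = 0.208).

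*Ccdc79*, whose protein TERB1 binds the telomere and recruits cohesin there, was at 0.57, 1.66 and 1.56 in control ovaries and at 0.50, 0.68 and 1.17 in *Smad4 (Stella)* ovaries. These 2 groups overlapped (log2 fold change -0.48 ± 0.65, adjusted p = 0.708). In DKO ovaries it was at -6.02, -4.59 and -3.03, with DKO ovary 1 not well above background, and the highest of them, DKO ovary 3, was the only DKO ovary on slide 3. From control ovaries it fell by 5.81 ± 0.65 on the log2 scale (adjusted p = 1.74e-04), and the difference was -6.91 within slide 2 and -3.16 after normexp (adjusted p = 0.0141). In the 3 testes, at -6.03, -7.50 and -6.57, no array had the probe well above background. A gene with such a group has only a bound there. The bound was taken from the higher of the probe's own signal and the lowest signal well above background on each array. By this bound, *Ccdc79* was at least 137-fold lower in testes than in control ovaries. The adjusted p given with a bound (here 4.98e-06) is that of limma on the measured signals and does not test the bound. In DKO ovaries, of which 2 of 3 were above background, the mean of -4.55 lay above the limit of -5.83 in testes, but DKO ovary 1 did not. On the measured signals DKO ovaries were called higher than testes (log2 fold change 2.15 ± 0.65, limma, adjusted p = 0.0248). This last call ended with slide as a block (log2 fold change 0.36, adjusted p = 0.783) and without each of control testes 2 and 3 and DKO ovaries 2 and 3 (adjusted p = 0.0560 to 0.0946).

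*Spdya*, the non-cyclin activator of CDK2, was at -0.03, 0.21 and 0.13 in control ovaries and at -1.04, -0.29 and -0.69 in *Smad4 (Stella)* ovaries. The 2 groups did not overlap, but the difference was not called (log2 fold change -0.78 ± 0.88, 95% interval -2.73 to 1.17, adjusted p = 0.647). In DKO ovaries the gene was at -4.00, -5.76 and -5.63, with 2 of 3 arrays well above background, and it fell by 5.24 ± 0.88 on the log2 scale (adjusted p = 0.00187), with a difference of -5.06 within slide 2 and of -2.74 after normexp (adjusted p = 0.0330). Testes were at -4.04, -7.61 and -8.08, with only the first of them above background. DKO ovaries and testes overlapped (log2 fold change 1.45 ± 0.88, adjusted p = 0.227). Without control testis 1 that difference passed the test (2.71, adjusted p = 0.00222), but the 2 remaining testes were not above background, so that its size is not a measured one.

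*Cdk2*, the kinase itself, was dim and rests on 1 of 2 probes, since the second was below background on all 12 arrays. Control ovaries gave -3.60, -3.29 and -3.04 and *Smad4 (Stella)* ovaries -2.82, -3.12 and -3.18. DKO ovaries gave -2.91, -3.04 and -2.76 and testes -3.66, -3.56 and -3.84. The ovaries overlapped, and DKO ovaries differed from control ovaries by 0.41 ± 0.16 (95% interval 0.05 to 0.76, adjusted p = 0.0973). Thus *Cdk2* was not called where its activator *Spdya* fell. All DKO ovaries lay above all testes, by 0.78 ± 0.16 (adjusted p = 0.00339), and with slide as a block by 0.28 (adjusted p = 0.453). No slide held both of these groups.

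**Figure D2:**
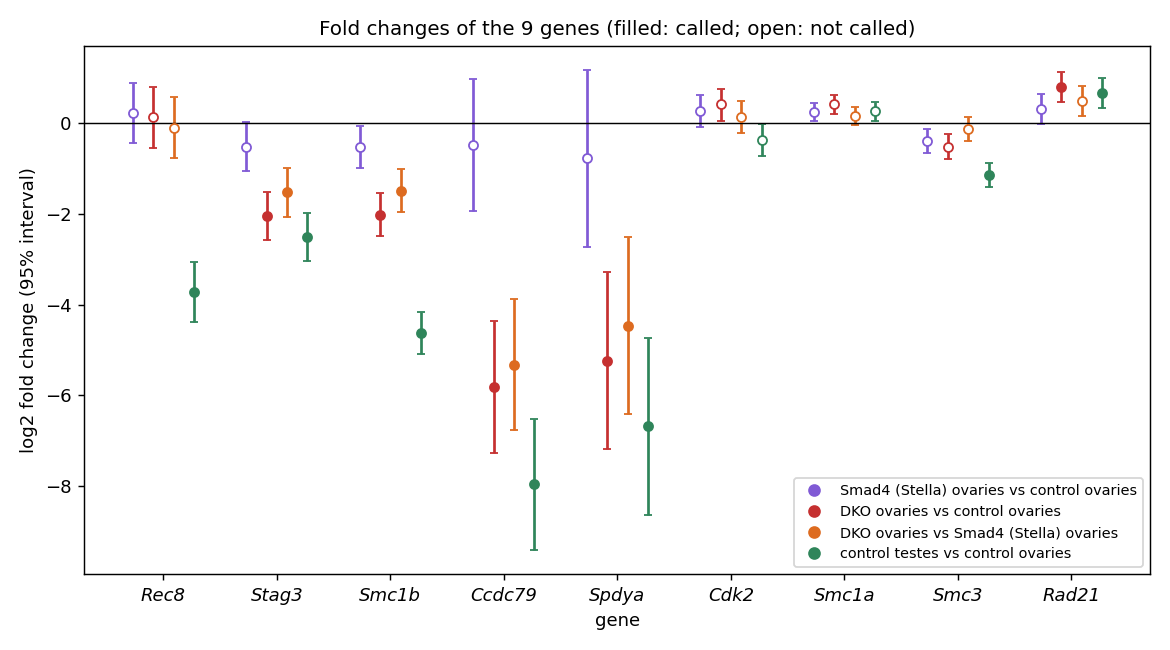
Log2 fold change of each gene (x axis) in 4 comparisons (colours), with 95% intervals from limma over 3 arrays a group. Filled points were called and open points were not. The DKO points of *Stag3* and *Smc1b* lie at -2.04 and -2.02, those of *Ccdc79* and *Spdya* at -5.81 and -5.24, and that of *Rec8* at 0.13. The testis point of *Ccdc79* shows the measured difference, of which only the bound of at least 137-fold holds.

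Of the general subunits, *Rad21* was called in DKO ovaries, *Rad21* and *Smc3* were called in testes and *Smc1a* was not called. *Rad21*, the kleisin of mitotic cohesin, was at 2.28, 1.96 and 2.19 in control ovaries and at 3.11, 3.03 and 2.67 in DKO ovaries, without overlap, a rise of 0.79 ± 0.15 on the log2 scale (adjusted p = 0.00324) that both of its probes showed (0.59 and 0.99). In testes, at 2.84, 2.85 and 2.74, it was 1.59-fold higher than in control ovaries (adjusted p = 0.00363). Both *Rad21* calls ended on the unscaled table (log2 fold change 0.98 and 0.74, adjusted p = 0.111 and 0.133), among other settings. They held under 8 of 11 alternatives in DKO ovaries and under 7 of 11 in testes. *Smc1a* was at 0.72, 0.81 and 0.80 in control and at 1.17, 1.17 and 1.21 in DKO ovaries, a difference of 0.41 ± 0.09 that passed the adjusted p (0.00856) but stayed under 1.5-fold. *Smc3*, the subunit that both kinds of ring share, was at 1.59, 1.49 and 1.71 in control ovaries and at 1.07, 1.09 and 1.07 in DKO ovaries (log2 fold change -0.52 ± 0.12, adjusted p = 0.0112, under 1.5-fold), and it was 2.20-fold lower in testes, at 0.69, 0.42 and 0.28 (adjusted p = 3.04e-05). The 2 probes of *Smc3* differed in that last comparison, at -0.69 and -1.58.

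The ratio of a meiotic subunit to its general counterpart on the same array was set against its mean in control ovaries. *Smc1b* over *Smc1a* gave log2 values of -2.31, -2.92 and -2.05 in the DKO ovaries, where the control ovaries ranged from -0.08 to 0.14. *Stag3* over *Stag1* gave -1.81, -2.29 and -1.41 in DKO ovaries, and over *Stag2* -2.43, -2.61 and -2.01. *Rec8* over *Rad21* gave -0.83, -0.98 and -0.19 in DKO ovaries and overlapped the control ovaries, which ranged from -0.36 to 0.45. In testes the mean ratio was -4.88 for *Smc1b* over *Smc1a*, -2.43 for *Stag3* over *Stag1* and -4.39 for *Rec8* over *Rad21*. The RNA of the meiotic subunits was thus changed by unequal amounts in DKO ovaries, though no test compared the subunits with each other. These are RNA ratios of whole gonads and do not give the make-up of the ring. On a scale from the control ovary mean (0%) to the testis mean (100%), the DKO ovaries stood at 66.4% to 96.4% for *Stag3*, at 34.9% to 54.6% for *Smc1b* and at -8.99% to 2.57% for *Rec8*. The *Smad4 (Stella)* ovaries stood at 5.72% to 35.1%, at 6.48% to 16.1% and at -14.3% to -0.110% for these genes.

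**Figure D3:**
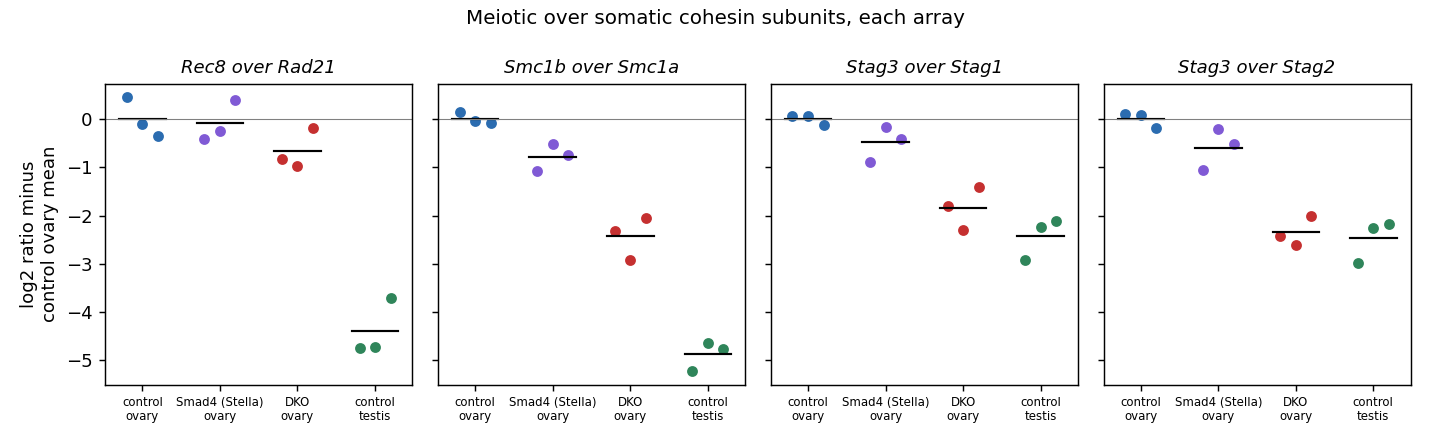
Log2 ratio of each meiotic cohesin subunit to a general counterpart on each array (points), minus the mean of the control ovaries (y axis), by group (x axis), with lines at the group means of 3 arrays. The DKO ovaries lie at -2.05 or lower for *Smc1b* over *Smc1a*, while *Rec8* over *Rad21* overlaps the control ovaries.

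With *Smad4* deleted in germ cells but 1 copy of *Stra8* kept, none of the 9 genes was called against control ovaries by limma, where 0.271% of all genes were. Before adjustment, 3 of 9 were under 0.05 by limma, *Smc1b*, *Smc1a* (log2 fold change 0.25) and *Smc3* (-0.39). That count was not made over all genes, so it says nothing about the 9 genes as a set. The *t*-test of the methods called 1, *Spdya*, before adjustment and 0 after it. Over all 18844 genes it called 302 higher and 517 lower before adjustment, and 0 and 1 after it. All 3 *Smad4 (Stella)* ovaries lay below all control ovaries for 4 of 9 genes, *Stag3*, *Smc1b*, *Spdya* and *Smc3*, beside 15.6% of all genes, and above them for 2, *Smc1a* and *Rad21*, beside 12.5%, and here group and slide cannot be told apart. The log2 fold changes of the 6 genes other than the general subunits ran from -0.78 to 0.27.

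DKO ovaries against *Smad4 (Stella)* ovaries, which differ in the *Stra8* copies, gave lower levels for 4 of 9 genes, where 8.46% of all genes were called in either direction and 4.08% lower. *Stag3* fell 2.88-fold (log2 fold change -1.52 ± 0.24, adjusted p = 0.00302) and *Smc1b* 2.80-fold (-1.49 ± 0.21, adjusted p = 0.00172). *Spdya* fell 21.9-fold (-4.46 ± 0.88, adjusted p = 0.00973) and *Ccdc79* 40.2-fold (-5.33 ± 0.65, adjusted p = 7.65e-04). For these 4 genes all DKO ovaries lay below all *Smad4 (Stella)* ovaries, beside 14.3% of all genes. *Rec8* differed by -0.10 ± 0.30 (95% interval -0.77 to 0.58, adjusted p = 0.889) and *Cdk2* by 0.13 ± 0.16 (adjusted p = 0.655). With slide as a block, where DKO ovary 3 alone shared a slide with *Smad4 (Stella)* ovaries, only *Ccdc79* kept its call (log2 fold change -3.82, adjusted p = 0.0147), and *Stag3* (-1.15), *Smc1b* (-1.08) and *Spdya* (-4.95) had adjusted p of 0.0861, 0.0513 and 0.0814. After normexp background correction the calls of *Ccdc79* (-2.71, adjusted p = 0.0612) and *Spdya* (-2.03, adjusted p = 0.188) ended, and those of *Stag3* and *Smc1b* held.

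Control testes against control ovaries gave the sex difference that the mutants were read against. Here 5 of the 6 genes other than the general subunits were lower in testes, all but *Cdk2* (log2 fold change -0.37 ± 0.16, adjusted p = 0.0762), where 34.0% of all genes were called, 16.8% lower and 17.2% higher. Of the general subunits, *Smc3* was lower and *Rad21* higher. *Smc1b* was 24.7-fold lower (log2 fold change -4.62 ± 0.21, adjusted p = 1.13e-07) and *Stag3* 5.69-fold (-2.51 ± 0.24, adjusted p = 1.46e-05). *Spdya* was lower too (adjusted p = 1.36e-04), and the size of its fitted difference (log2 fold change -6.68 ± 0.88) rests on 2 testes that were not above background. The log2 fold change in testes was -1.62 for *Dazl* (adjusted p = 7.75e-06) and -0.57 for *Ddx4* (adjusted p = 0.0116, under 1.5-fold). The other measured germ cell markers, *Dppa3*, *Nanos3* and *Pou5f1*, were higher in testes, by 2.34, 4.37 and 2.61 (adjusted p = 0.00129, 9.89e-06 and 3.49e-04). The part of germ cell number in these values was not tested. Within slide 1, against control ovary 1 alone, the differences of *Rec8*, *Stag3* and *Smc1b* were -4.31, -2.57 and -4.70. Among the members, 5 of 9 were called in DKO ovaries against testes, all higher, where 25.7% of all genes were called and 12.7% were higher. Of these, *Rec8* and *Smc1b* kept their calls under 11 of 11 alternatives, and *Ccdc79*, *Cdk2* and *Smc3* under 6 each. DKO ovaries and testes shared no slide, so that with slide as a block they are joined only through control ovary 1. These comparisons share the control ovaries or the DKO ovaries, so that they are not independent of each other.

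The partners of these genes were taken from 4 lists of 34 genes, of which 33 were measured and *Rad21l*, a further meiotic kleisin, was not. In DKO against control ovaries, 9 of 33 fell and 4 rose, where 7.99% of all genes fell and 6.69% rose, with a median log2 fold change of -0.11 beside 0.00 over all genes. In *Smad4 (Stella)* against control ovaries limma called 0 of 33, where 0.271% of all genes were called, with a median of -0.10 beside -0.02. At an unadjusted p under 0.05 by limma were 9 of 33. The share of all genes there was not counted, so this number says nothing about the lists as a set.

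Of the 11 genes for attachment of telomeres to the nuclear envelope, 5 fell in DKO ovaries and none rose, where 7.99% and 6.69% of all genes did. *Majin*, the membrane anchor of the complex, was at -0.07, -0.03 and -0.55 in control ovaries and at -4.48, -4.72 and -3.80 in DKO ovaries, and it fell by 4.12 ± 0.31 (adjusted p = 1.73e-05). *Terb2*, which joins TERB1 to MAJIN, went from 0.52, 0.22 and -0.41 to -2.74, -2.90 and -2.64, and it fell by 2.87 ± 0.24 (adjusted p = 3.58e-05). The DKO ovaries of both genes lay apart from the control ovaries and from the testes, in which *Terb2* was at -6.08, -5.56 and -5.25 and no array had *Majin* well above background. The level of *Majin* in testes was at least 48.9-fold lower than in control ovaries and at least 2.82-fold lower than in DKO ovaries. Limma on the measured signals gave adjusted p = 9.11e-08 and 5.52e-05, which do not test these bounds.

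*Kash5*, which links the complex to dynein and rests on 1 of 2 probes, was at -1.75, -1.59 and -1.91 in control ovaries. In DKO ovaries it was at -4.12, -4.46 and -3.47, and it fell by 2.27 ± 0.24 (adjusted p = 1.25e-04). Testes, at -4.22, -4.47 and -4.47, overlapped the DKO ovaries. *Sun1*, the inner membrane protein that somatic cells also use, was at 5.27, 5.29 and 5.37 in control and 5.13, 4.65 and 4.69 in DKO ovaries (log2 fold change -0.49 ± 0.12, adjusted p = 0.0174, under 1.5-fold) and was 2.15-fold lower in testes. The shelterin genes *Terf1* and *Tinf2*, whose products bind telomeres in all cells, had log2 fold changes of -0.78 and -1.12 in DKO ovaries (adjusted p = 0.0124 and 8.89e-04), and the call of *Terf1* ended with slide as a block (-0.54, adjusted p = 0.0959). After normexp the DKO values were -1.87 for *Terb2* (adjusted p = 0.0383), -1.89 for *Majin* (adjusted p = 0.0950) and -0.75 for *Kash5* (adjusted p = 0.515), so that only *Terb2* of these kept its call. All of *Terb2*, *Majin* and *Kash5* were lower in DKO than in *Smad4 (Stella)* ovaries too, with log2 fold changes of -2.23, -3.58 and -2.28 (adjusted p = 4.17e-04, 9.90e-05 and 3.48e-04). Of the 33 partner genes, 6 were lower and 3 higher in this comparison, where 4.08% of all genes were lower. *Tinf2*, *Esco2* and *Ccne2* were lower as well (-0.75, -1.41 and -2.17), and *Cdca5*, *Hdac8* and *Ccna1* higher (0.74, 1.04 and 0.92). The calls of *Tinf2*, *Cdca5* and *Ccna1* held under only 6, 6 and 3 of 11 alternatives.

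**Figure D4:**
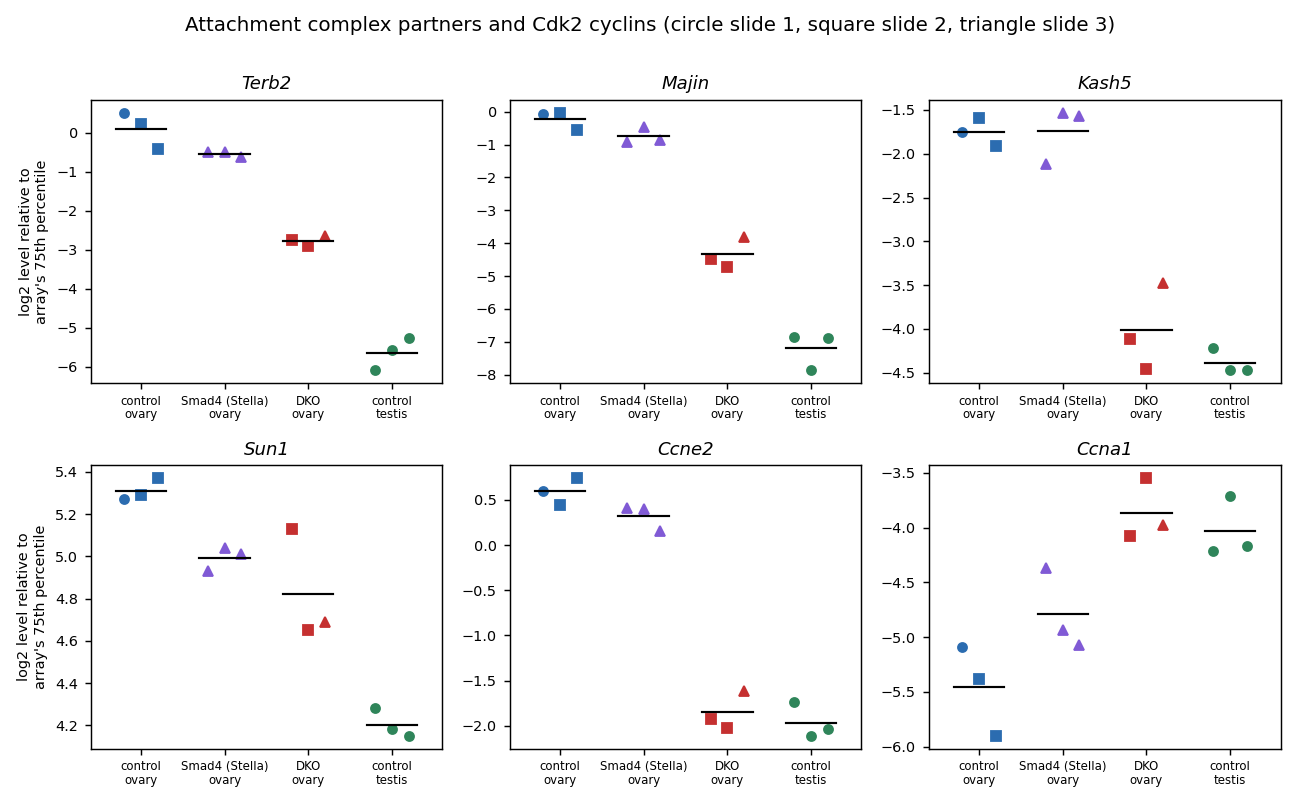
Levels of 4 attachment genes and 2 cyclins on each of the 12 arrays (y axis, log2 relative to the array's 75th percentile) by group (x axis). Points are arrays, shapes give the slide and lines are group means of 3 arrays. *Terb2* and *Majin* lie between control ovaries and testes in DKO ovaries, and *Sun1* spans a narrower range.

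Among 13 genes of cohesin loading, release and protection, 3 fell and 3 rose in DKO ovaries, where 14.7% of all genes were called. *Esco2*, an acetyltransferase that locks cohesin on chromatin, fell 3.64-fold (log2 fold change -1.86 ± 0.14, adjusted p = 1.90e-05), and *Esco1* and the loader subunit *Mau2* had log2 fold changes of -0.59 each, at the edge of the 1.5-fold threshold. The calls of *Esco1* and *Mau2* held under only 5 and 4 of 11 alternatives. *Cdca5* (sororin, which protects cohesin from release) rose 2.27-fold (adjusted p = 4.24e-04), *Hdac8*, the cohesin deacetylase, 2.41-fold (adjusted p = 6.65e-04) and *Pttg1* (securin) 1.52-fold (adjusted p = 0.00167). *Stag1* and *Stag2*, the general counterparts of *Stag3*, differed by -0.20 and 0.31 (adjusted p = 0.128 and 0.0445), under 1.5-fold, and were called in none of the 5 comparisons. In testes against control ovaries, where 34.0% of all genes were called, 4 of the 13 were lower, *Esco2* (5.04-fold, adjusted p = 7.08e-07), *Esco1* (2.30-fold), *Mau2* (1.57-fold) and *Pds5a* (log2 fold change -0.62, adjusted p = 0.0116), and 2 were higher, *Cdca5* (2.07-fold) and *Pttg1* (2.03-fold). Of these, the calls of *Mau2* and *Pds5a* held under only 5 and 6 of 11 alternatives.

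Of the 7 cyclins and inhibitors that act on CDK2, *Ccne2* (cyclin E2) fell and *Ccna1* (the germline cyclin A1) rose in DKO ovaries. *Ccne2* averaged 0.60 in control and -1.85 in DKO ovaries, and fell by 2.45 ± 0.15 (adjusted p = 5.88e-06), with a mean of -1.96 in testes. *Ccna1* was at -5.09, -5.38 and -5.90 in control ovaries, where 1 of 3 arrays was well above background, and at -4.08, -3.55 and -3.98 in DKO ovaries, a rise of 1.59 ± 0.25 (adjusted p = 0.00138). Testes, at -4.21, -3.71 and -4.17 for *Ccna1*, overlapped the DKO ovaries. In testes against control ovaries, where 34.0% of all genes were called, all 7 genes were, 5 lower (*Ccne1*, *Ccne2*, *Cdkn1a*, *Cdkn1b*, *Cdkn1c*) and 2 higher (*Ccna1*, *Ccna2*). *Cdkn1a* and *Cdkn1c*, inhibitors of cyclin-dependent kinases, were higher in DKO ovaries than in testes by 1.37 and 2.33 (adjusted p = 7.60e-05 and 1.10e-04), as were *Esco1*, *Hdac8* and *Sun1* by 0.61, 0.78 and 0.62, and with *Terb2* and *Majin* these made 7 of 33 that were higher and 0 that were lower, beside 12.7% of all genes higher. The calls of *Esco1*, *Hdac8* and *Sun1* held under 7, 6 and 6 of 11 alternatives, and ended with slide as a block (adjusted p = 0.0544, 0.105 and 0.0888).

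**Figure D5:**
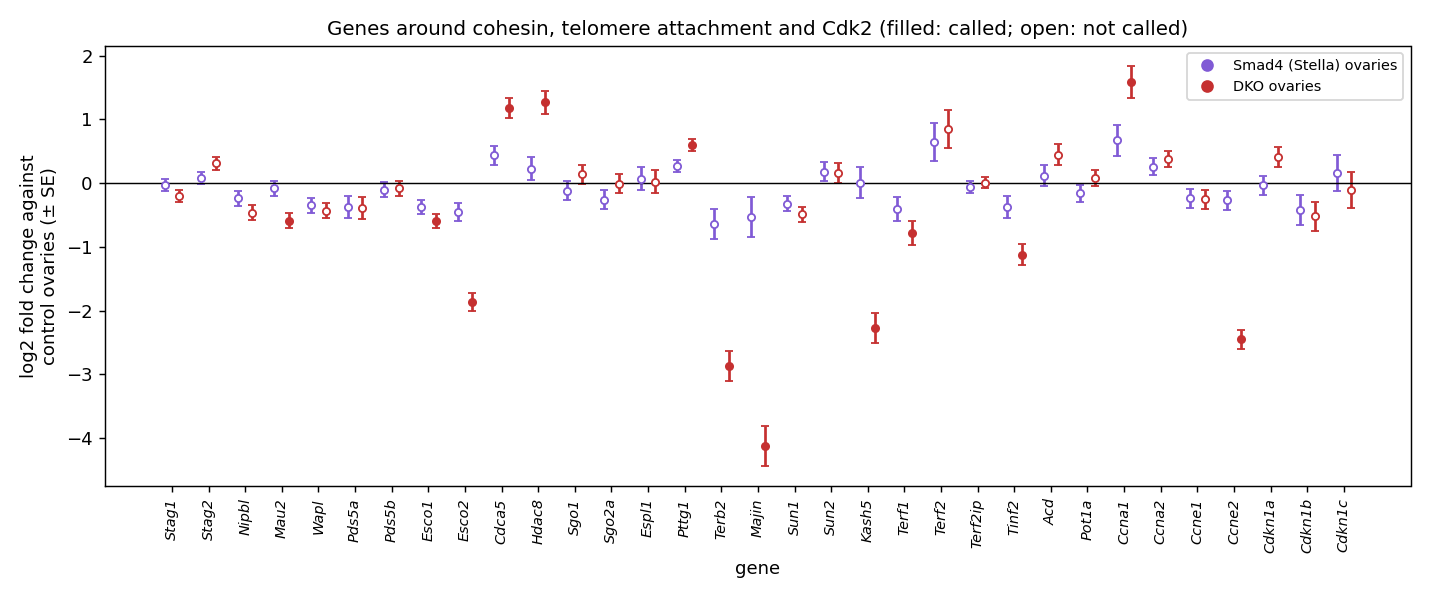
Log2 fold change against control ovaries (y axis, bars are SE) of the 33 partner genes (x axis) in *Smad4 (Stella)* and DKO ovaries. Filled points were called. The DKO points of *Majin*, *Terb2*, *Ccne2* and *Kash5* lie at -4.12, -2.87, -2.45 and -2.27, and no point of the *Smad4 (Stella)* ovaries is filled.

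The genes whose levels over the 12 arrays were most like those of each germ cell gene were named by Pearson's r among 18811 genes. They describe likeness over arrays that fall into 4 groups, and the r is mostly that of the group means. For *Rec8* they included *Prcd* (r = 0.989) and *Tmem51* (0.988), with means of *Prcd* at 3.36 in control, 3.50 in *Smad4 (Stella)* and 3.38 in DKO ovaries and at 0.72 in testes. For *Stag3* they were *Fbxl21* (0.996), *Tex12* (0.992), a gene of the synaptonemal complex, and *Ccdc181* (0.992). *Tex12* averaged 4.14 in control ovaries, 1.55 in DKO ovaries and 1.26 in testes. For *Smc1b* they were *BC022960* (0.997), *Xlr4b* (0.995) and *Figla* (0.994), an oocyte transcription factor, which averaged 2.19, 0.00 and -3.77 in those 3 groups. For *Ccdc79* they were *Sycp2* (0.988), a protein of the chromosome axis, *Inca1* (0.987) and *4933406P04Rik* (0.987), and for *Spdya* *Hykk* (0.978), *Rps6ka5* (0.977) and *Mindy2* (0.971).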

How the data were processed

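Each of 12 single-colour Agilent arrays was labelled from 0.20 µg of total RNA of E14.5 gonads. The authors deposited each array's Feature Extraction 11.0.1.1 output, whose processed intensity is background-corrected on its own array, and the same intensity as a joint table that no step had scaled between arrays. Probe coordinates refer to mm9 and promoters to GRCm38.p6.

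On each array the log2 intensity was taken relative to its own 75th percentile (control spots left out). Outlier spots were left out, and a probe had to be well above background on all 3 arrays of some group. A gene's level was the mean of its probes. Groups, taken from the sample labels, entered limma 3.58.1 (R 4.3.3, with version 1.17.8 of data.table) in 1 model over all arrays without a block, with Benjamini-Hochberg adjustment over 18844 genes. Nothing states that the 3 samples of a group came from separate litters, so p-values measure the spread between these samples. The number of arrays limits the precision.

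The genes and lists were chosen with earlier results of these data known. The text names all 9 genes, list genes that were called, *Rad21l*, *Stag1*, *Stag2*, *Terb2*, *Majin*, *Sun1* and *Kash5* in any case, and the 3 genes of highest r per germ cell gene, of which 1 is not reported here. Of the marker lists, those of fetal Leydig, endothelial, macrophage, erythroid and mesonephric cells summed to 0.95 to 1.44, 2.49 to 3.16, -0.80 to -0.58, 8.10 to 8.46 and 0.87 to 1.44 in control and to 0.98 to 1.25, 2.91 to 3.06, -0.55 to -0.01, 7.70 to 7.81 and 1.18 to 1.41 in DKO ovaries. The fit was tested on simulated data. Alternatives were normexp background correction (offset 50), quantile normalization, the unscaled table, no filter, the brightest probe, slide or replicate number as a block, only the groups compared, a 2-fold threshold, the *t*-test of the methods and leaving out each array.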

Additional observations from a re-analysis of the deposited data

How the results depend on the processing

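Of the 9 genes, 5 were called in DKO against control ovaries in the main analysis and 4 or 5 under each of the 11 alternatives, with *Stag3*, *Smc1b*, *Ccdc79* and *Spdya* called in all 11 and in all 12 analyses that left out 1 array. Leaving out 1 array gave 5, 0, 4 to 5 and 6 to 7 called genes in DKO against control, *Smad4 (Stella)* against control, DKO against *Smad4 (Stella)* ovaries and testes against control ovaries, and 3 to 6 in DKO ovaries against testes, where the lowest count was without control testis 3. DKO against *Smad4 (Stella)* ovaries gave 4 called genes, but 2 after normexp, 1 with slide as a block and 0 by the *t*-test of the methods after adjustment. That adjusted *t*-test called 11 genes higher and 72 lower over all genes. DKO ovaries against testes gave 5, but 2 after normexp, 2 with slide as a block, 3 on the unscaled table and 3 at 2-fold. The calls over all genes fell there too, from 2395 higher and 2455 lower in the main analysis. They were 826 and 740 after normexp, 1793 and 2214 with slide as a block, 1398 and 995 on the unscaled table and 1214 and 1333 at 2-fold. Without control testis 3 they were 2119 and 2175. *Smad4 (Stella)* against control ovaries gave 0, and 1 by the unadjusted *t*-test of the methods, which called 302 genes higher and 517 lower over all genes. No called gene reversed under any alternative. Replicate numbers were shared only as numbers: same-numbered arrays of different groups deviated with r from -0.18 to 0.15, and with replicate number as a block the counts were 5, 0, 4, 7 and 5, as without it. The unscaled table moved the median of all genes by 0.19 in DKO and 0.40 in *Smad4 (Stella)* against control ovaries, and normexp by 0.26 and -0.07. In DKO against control ovaries, normexp called 444 genes higher and 471 lower where the main analysis called 1261 and 1506, and the table without scaling gave 551 and 448. In DKO against *Smad4 (Stella)* ovaries these were 827 and 768, and 112 and 413 on the unscaled table, 85 and 137 after normexp and 223 and 717 with slide as a block, so that the balance of higher and lower calls depended on the scaling and the slide. For *Smad4 (Stella)* against control ovaries the main analysis called 25 and 26, and the table without scaling gave 12 and 2. Dim signals limit *Ccdc79*, *Spdya*, *Majin* and *Ccna1*: after normexp the calls of *Majin* and *Kash5* in DKO against control ovaries were lost (adjusted p = 0.0950 and 0.515). The cause of these changes was not tested.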
